A study of Mus musculus with 8 samples.

Results

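Regulatory T (Treg) cells are CD4 T cells that hold immune responses in check, and 8 genes for the secreted and surface mediators through which they do so are described here. The genes are Il10, Ebi3, Il12a, Tgfb1, Lrrc32, Entpd1, Nt5e and Fgl2. They were chosen by symbol, and all 8 were found among the 22432 genes of the deposited table. The series measured RNA in mouse Treg cells that lack RelB, Nfkb2 or both, the subunits of the alternative NF-kB pathway.

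All cells came from C57Bl/6 mice carrying Foxp3-CRE-YFP, a Cre recombinase with a yellow fluorescent reporter driven by the Treg gene Foxp3, so that floxed genes are deleted in Foxp3-expressing cells and other cells of the mouse keep them. WT cells carried this allele alone, RelB-KO cells also carried RelB F/F, Nfkb2-KO cells nfkb2 F/F, and double-knockout (DKO) cells both floxed genes. YFP+ cells were sorted from spleen and lymph nodes pooled together and cultured for 16 h with antibodies to CD3 (5 µg/ml), CD28 (1 µg/ml) and OX40 (2 µg/ml, agonist) and with IL-2 (10 ng/ml). There were 2 libraries per genotype. The labels give no age, and do not say whether replicates came from separate animals, so p-values measure the spread between these libraries, which may be technical. The WT libraries differed in sex-linked RNA, as given below, so the spread of that pair may hold more than technical variation.

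Treg cells restrain their neighbours by several routes. They secrete IL-10, which quiets myeloid and T cells through a receptor that signals by STAT3, and they can secrete IL-35, a dimer of the chains encoded by Ebi3 and Il12a. TGF-beta1 is made as a latent complex that GARP, the product of Lrrc32, tethers to the Treg surface until integrins release it. CD39 (Entpd1) and CD73 (Nt5e) act in series outside the cell to turn ATP into adenosine. FGL2 is a secreted fibrinogen-like protein that binds Fc receptors. RelB pairs with p52, the processed Nfkb2 product, to form the main DNA-binding dimer of the alternative NF-kB pathway, which OX40 and related receptors engage.

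The upstream sequences of Ebi3 and Fgl2 are shown because these were the mediators whose levels followed RelB status most closely. They come from RefSeq (GRCm38.p6) and lie on the plus strand, Ebi3 at chr17:55952373-55952622 and Fgl2 at chr5:21372423-21372641. Capitals mark a match to the NF-kB consensus.

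Ebi3: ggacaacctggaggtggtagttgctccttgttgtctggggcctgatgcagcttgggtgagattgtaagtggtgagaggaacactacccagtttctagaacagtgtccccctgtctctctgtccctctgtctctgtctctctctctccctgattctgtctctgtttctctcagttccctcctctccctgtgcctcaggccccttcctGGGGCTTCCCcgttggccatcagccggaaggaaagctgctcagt
Fgl2: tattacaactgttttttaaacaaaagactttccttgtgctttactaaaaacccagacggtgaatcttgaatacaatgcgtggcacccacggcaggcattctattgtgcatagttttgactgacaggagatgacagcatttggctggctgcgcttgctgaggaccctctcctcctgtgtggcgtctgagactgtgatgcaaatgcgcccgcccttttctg

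The Ebi3 match, GGGGCTTCCC, lay 44 to 35 bases before the RefSeq start, at chr17:55952579-55952588. Both strands were searched in windows from 250 bases before to 50 bases after each start. The NF-kB consensus was found in 1480 of 32851 such windows, a share of 4.505%. Among the members, 6 genes matched the promoter table by symbol, with 8 windows, and of these windows only that of Ebi3 held the consensus. A match is a description of letters and not a binding site.

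Values are the deposited log2 expression values, which are relative to library size, and no read counts lie behind them here, so depth is known only from the 30 M reads that the design states for each sample. Differences are on this log2 scale, ± the standard error from limma, a linear model fitted to all libraries. A gene was called when its Benjamini-Hochberg adjusted p was under 0.05 over the 13797 genes tested. The labels' replicate numbers were entered in a second fit as a block, because libraries with the same number deviated together in every genotype. Relb lay at 6.35 to 7.08 in the RelB-deleted libraries against 10.49 to 10.84 elsewhere, and Nfkb2 at 8.75 to 9.85 in the Nfkb2-deleted libraries against 12.31 to 12.80 elsewhere. DKO kept more of this RNA than the single knockouts. Nfkb2 averaged 9.57 in DKO and 8.77 in Nfkb2-KO, and Relb 6.91 in DKO and 6.44 in RelB-KO. Foxp3 lay between 13.95 and 14.28 in all 8 libraries. Replicate 1 of WT stood apart in sex-linked RNA, with low Xist, which females express from the X chromosome (8.17, where the others had 14.61 to 15.13), and high Ddx3y, a Y-linked gene (11.60, where the others had 4.25 to 4.35). The labels give no sex, but by these genes 1 of the 2 WT libraries may differ in sex from every other library, which bears on each comparison with WT. No mediator was called against WT without that library, with or without the block, and calls elsewhere that changed without it are given both ways.

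Of the 8 mediators, 7 passed the filter on low values and Il12a did not. Without the block, limma called no mediator in any pairwise comparison. This stands against 0.00725% of all tested genes called in RelB-KO minus WT, 0.341% in Nfkb2-KO minus WT, 0.0145% in DKO minus WT, 0.768% in DKO minus Nfkb2-KO, 0.00725% in DKO minus RelB-KO and 0.797% in Nfkb2-KO minus RelB-KO. In that order, the mediators with an unadjusted p under 0.05 numbered 1, 1, 1, 3, 0 and 4 of 7, where the share of all tested genes was 1.24%, 10.7%, 5.18%, 9.86%, 2.88% and 11.9%. The interaction, which asks whether the RelB difference depends on Nfkb2, had no mediator called and none with an unadjusted p under 0.05, with 0.00725% of all genes called and 4.45% at that unadjusted p. With the block, Ebi3 alone was called, in DKO minus Nfkb2-KO (5.02% of all genes called), in Nfkb2-KO minus RelB-KO (4.46%) and in the 4 RelB-deleted against the 4 RelB-intact libraries (2.67%, and 0.210% without the block). In the comparisons where the block called no mediator, it called 0.0145% of all genes in RelB-KO minus WT, 2.91% in Nfkb2-KO minus WT, 0.0652% in DKO minus WT, 0.0145% in DKO minus RelB-KO and 0.471% in the interaction. The authors' deposited table called 1 mediator in each comparison with WT, against 0.119% of its genes in RelB-KO, 6.22% in Nfkb2-KO and 1.23% in DKO. These were Ebi3 in RelB-KO and DKO and Entpd1 in Nfkb2-KO.

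By level, the mediators differed widely. Lrrc32 had the highest mean over the 8 libraries, at 13.82, the 99.2 percentile of the tested genes. Nt5e followed at 13.53, Tgfb1 at 12.74, Il10 at 11.06, Fgl2 at 10.42, Entpd1 at 9.93 and Ebi3 at 9.39. Genes are compared better per length, which here assumes that the values hold no length term. With log2 of the exonic kilobases subtracted, the level of Lrrc32 was again highest at 11.59, then Il10 at 10.67, Nt5e at 10.43, Tgfb1 at 10.40, Ebi3 at 9.18, Fgl2 at 8.50 and Entpd1 at 7.45. Il10 and Ebi3, whose transcripts are short, thus ranked higher per length than by the value alone.

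Il10, the anti-inflammatory cytokine gene (chr1:131019845-131024974, plus strand, mm10), was expressed in every library. It measured 10.70 and 11.24 in WT, 10.57 and 10.92 in RelB-KO, 11.41 and 11.35 in Nfkb2-KO, and 10.67 and 11.65 in DKO. The Nfkb2-KO pair lay above both WT and both RelB-KO libraries, and the DKO pair lay on either side of it and spanned almost the whole range. The largest pairwise difference, Nfkb2-KO minus RelB-KO, was 0.64 ± 0.33 (95% interval -0.16 to 1.43, limma adjusted p = 0.529). With the block its standard error was 0.19 and its adjusted p 0.102. Against WT the differences were -0.23 ± 0.33 in RelB-KO, 0.41 ± 0.33 in Nfkb2-KO and 0.19 ± 0.33 in DKO and each 95% interval held 0. These values moved with single libraries. Nfkb2-KO minus WT was 0.71 within replicate 1 and 0.11 within replicate 2, and with either WT library left out it was 0.14 (replicate 1 out) or 0.68 (replicate 2 out). DKO minus WT was 0.68 without DKO replicate 1 and turned to -0.30 without DKO replicate 2. In order of mean level the genotypes ran RelB-KO, WT, DKO, Nfkb2-KO, and each overlapped the next.

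Across the 4 Nfkb2-deleted against the 4 Nfkb2-intact libraries, a contrast added after the values were seen, Il10 differed by 0.41 ± 0.23 (limma adjusted p = 0.551, with the block 0.139). No mediator was called in it by either fit, with 0.0435% of all genes called without the block and 1.55% with it. None of the 7 had an unadjusted p under 0.05 without the block, against 11.3% of all genes. The RelB-deleted against RelB-intact difference of Il10 was -0.22 ± 0.23 and the interaction 0.0039 ± 0.47.

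Ebi3, which encodes the chain shared by IL-35 and IL-27 (chr17:55952640-55957022, plus strand), gave the clearest pattern of the group. It measured 9.09 and 9.10 in WT, 9.77 and 9.44 in RelB-KO, 9.09 and 9.10 in Nfkb2-KO, and 9.81 and 9.68 in DKO. All 4 libraries without RelB lay above all 4 with RelB, and WT and Nfkb2-KO could not be told apart. The 4 RelB-deleted libraries exceeded the 4 RelB-intact by 0.58 ± 0.082 (95% interval 0.38 to 0.78, limma adjusted p = 0.0686). With the block Ebi3 rose in the RelB-deleted libraries (0.58 ± 0.068, adjusted p = 0.00428), and it was called there whichever library was left out (differences 0.51 to 0.65, adjusted p 0.00282 to 0.0466). This contrast was also added after the values were seen. Of 7 tested markers of myeloid and dendritic cells, which also express Ebi3, 6 were higher by mean in both RelB-deleted genotypes than in both others. Only 1 of the 7 had all RelB-deleted libraries above all RelB-intact ones. The share of all genes in this order was not counted. RelB-KO minus WT of the 6 markers ran from 0.0602 (Fcgr1) to 0.582 (Lyz2) within replicate 1. Within replicate 2 it ran from -0.0161 (Csf1r) to 0.073 (Itgam), where that of Ebi3 was 0.35. The part of myeloid and dendritic cells in the Ebi3 difference was not tested.

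The difference of Ebi3 with RelB lost was measured in 2 backgrounds. RelB-KO exceeded WT by 0.51 ± 0.12 (95% interval 0.23 to 0.79, limma adjusted p = 1.00, with the block 0.819). DKO exceeded Nfkb2-KO by 0.65 ± 0.12 (0.37 to 0.93, adjusted p = 0.0814), and with the block this passed the test at an adjusted p of 0.00672. The 2 differences were close in size, and their interaction was 0.14 ± 0.16 (interval -0.26 to 0.53, limma adjusted p = 1.00), an interval wider than either difference. DKO exceeded WT by 0.65 ± 0.12 (adjusted p = 0.861, with the block 0.0774). With the block this passed the test without RelB-KO replicate 1 (0.0260) or RelB-KO replicate 2 (0.0255). Nfkb2-KO differed from WT by 0.0063 ± 0.12. Within each replicate number, RelB-KO minus WT was 0.68 and 0.35, and DKO minus WT 0.73 and 0.58.

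In the single comparisons, the Ebi3 call with the block held in 5 of the 8 fits that left out a library, in each of the comparisons below. In DKO minus Nfkb2-KO with the block, it was lost without Nfkb2-KO replicate 1 (adjusted p = 0.0632), DKO replicate 1 (0.0755) or DKO replicate 2 (0.0930). In Nfkb2-KO minus RelB-KO, where Ebi3 was lower in Nfkb2-KO by -0.51 ± 0.096 with the block (adjusted p = 0.0227, 0.159 without it), it was lost without RelB-KO replicate 1 (0.147), Nfkb2-KO replicate 1 (0.200) or Nfkb2-KO replicate 2 (0.0537). Without WT replicate 1 both calls held, at 0.00595 and 0.0204. These 2 comparisons share the Nfkb2-KO libraries. The authors' deposited table gives Ebi3 a log2 fold change of 0.58 in RelB-KO (adjusted p = 0.0272), 0.73 in DKO (7.69e-05) and 0.0062 in Nfkb2-KO (0.994).

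Il12a, the p35 chain of IL-35 and IL-12 (chr3:68690644-68698547, plus strand), lay at about -1.73 in 7 libraries and -1.72 in Nfkb2-KO replicate 1, near the lowest values in the table. It was not tested, and no fold is given at this level. The other chains that can pair within this cytokine family were low too. Il27, the p28 partner of EBI3 in IL-27, lay at 1.65 to 1.79, Il12b, the p40 chain, at 1.01 to 1.09, and Il23a, the p19 chain, at 0.78 to 0.81. Of the IL-12 family chains measured, Ebi3 alone lay well above the low end.

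Tgfb1, the ligand gene (chr7:25687002-25705077, plus strand), measured 12.61 and 12.78 in WT, 12.52 and 12.74 in RelB-KO, 13.00 and 12.87 in Nfkb2-KO, and 12.64 and 12.73 in DKO. Both Nfkb2-KO libraries lay above all others, and the other genotypes overlapped. The differences involving Nfkb2-KO were small. It exceeded WT by 0.24 ± 0.11 (95% interval -0.028 to 0.51, limma adjusted p = 0.534) and RelB-KO by 0.31 ± 0.11 (0.037 to 0.58, adjusted p = 0.351), and DKO lay 0.25 ± 0.11 below it (adjusted p = 0.553). With the block the 3 adjusted p were 0.218, 0.107 and 0.207, so Tgfb1 was called in none.

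Lrrc32, whose product GARP holds latent TGF-beta on the cell (chr7:98489283-98502181, plus strand), measured 13.42 and 14.07 in WT, 14.15 and 14.04 in RelB-KO, 13.37 and 13.67 in Nfkb2-KO, and 14.02 and 13.84 in DKO. Both Nfkb2-KO libraries lay below both RelB-KO and both DKO libraries, and the WT pair spanned most of the range. Nfkb2-KO minus RelB-KO was -0.58 ± 0.22 (95% interval -1.11 to -0.044, limma adjusted p = 0.375, with the block 0.109). With the block and without WT replicate 1, Lrrc32 was called lower (adjusted p = 0.0272), and it was called also without WT replicate 2 (0.0270). Neither WT library enters that difference itself, so what changed was the estimate of the spread. RelB-KO minus WT was 0.35 ± 0.22, but the value within replicate 1 was 0.74 and within replicate 2 -0.033. The RelB-deleted against RelB-intact difference was 0.38 ± 0.16 (adjusted p = 0.624, with the block 0.196), and with the block it was called without WT replicate 2 (0.54, adjusted p = 0.0252).

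Entpd1, encoding the ATP-hydrolysing ectoenzyme CD39 (chr19:40612366-40741602, plus strand), measured 10.02 and 10.13 in WT, 10.26 and 9.70 in RelB-KO, 9.68 and 9.51 in Nfkb2-KO, and 10.06 and 10.06 in DKO. The Nfkb2-KO libraries were the lowest of the 8, with RelB-KO replicate 2 just above them. Nfkb2-KO minus WT was -0.48 ± 0.18 (95% interval -0.90 to -0.057, limma adjusted p = 0.412, with the block 0.117). The authors' deposited table called it, with a log2 fold change of -0.48 and an adjusted p of 0.0383. With the block it was called without RelB-KO replicate 1 (adjusted p = 0.0298) or RelB-KO replicate 2 (0.0297), the pair of libraries that differed most for this gene.

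In DKO, Entpd1 was at the WT level, with a difference of -0.012 ± 0.18 (95% interval -0.43 to 0.41). DKO minus Nfkb2-KO was 0.47 ± 0.18 (limma adjusted p = 0.440, with the block 0.113), and with the block it was called without RelB-KO replicate 1 (0.0218) or RelB-KO replicate 2 (0.0215). Nfkb2-KO minus RelB-KO was -0.38 ± 0.18 (with the block 0.171), and was called without RelB-KO replicate 2 (-0.65, adjusted p = 0.0270). Loss of RelB thus went with a difference of -0.095 ± 0.18 where Nfkb2 was intact and of 0.47 ± 0.18 where it was deleted. The value with Nfkb2 intact had no steady sign, at 0.24 within replicate 1 and -0.43 within replicate 2, and at -0.37 without RelB-KO replicate 1 and 0.18 without RelB-KO replicate 2. The interaction, 0.56 ± 0.25, was not called (95% interval -0.035 to 1.16, adjusted p = 1.00, with the block 0.422), and ran from 0.28 to 0.84 over the same leave-outs.

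Nt5e, encoding CD73, which makes adenosine from AMP (chr9:88327197-88372092, plus strand), was the steadiest of the abundant mediators. It measured 13.57 and 13.58 in WT, 13.73 and 13.45 in RelB-KO, 13.59 and 13.41 in Nfkb2-KO, and 13.60 and 13.35 in DKO. All genotypes overlapped. No pairwise difference was larger than 0.12 in size, and the 95% intervals reached from -0.45 (DKO minus RelB-KO) at the lowest to 0.34 (RelB-KO minus WT) at the highest. The sign of the RelB-KO minus WT and DKO minus Nfkb2-KO differences turned under quantile normalization, from 0.013 to -0.0019 and from -0.029 to 0.056.

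Fgl2, the secreted fibrinogen-like mediator (chr5:21372642-21378374, plus strand), had the widest range of the group. It measured 9.81 and 10.43 in WT, 11.64 and 10.32 in RelB-KO, 9.70 and 9.43 in Nfkb2-KO, and 10.93 and 11.07 in DKO. Both DKO libraries lay above all WT and Nfkb2-KO libraries, both Nfkb2-KO libraries were the lowest, and the RelB-KO pair was split, with replicate 1 the highest of all and replicate 2 inside the WT pair. Fgl2 lies within Ccdc146, which is on the other strand and measured 2.50 to 2.64, and whether the counting used strand is not given in the sources used here.

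The largest Fgl2 differences were those between Nfkb2-KO and the RelB-deleted genotypes. DKO minus Nfkb2-KO was 1.43 ± 0.42 (95% interval 0.43 to 2.44, limma adjusted p = 0.263, with the block 0.0544), and 1.23 and 1.64 within the 2 replicate numbers. Nfkb2-KO minus RelB-KO was -1.42 ± 0.42 (adjusted p = 0.252, with the block 0.0595). With the block and without WT replicate 1, Fgl2 was called in both, higher in DKO (adjusted p = 0.0192) and lower in Nfkb2-KO than in RelB-KO (0.0232). Without WT replicate 2 the adjusted p were 0.0193 and 0.0231. Leaving out RelB-KO libraries moved Fgl2 too. DKO minus Nfkb2-KO was called without RelB-KO replicate 1 (0.00262) or replicate 2 (0.00258), and Nfkb2-KO minus RelB-KO without RelB-KO replicate 2 (-2.16, adjusted p = 0.00249).

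RelB-KO replicate 1 weighed on the Fgl2 differences from it. RelB-KO minus WT was 0.86 ± 0.42 (limma adjusted p = 1.00), with 1.83 within replicate 1 and -0.11 within replicate 2. With the block it was 0.11 without RelB-KO replicate 1 and 1.60 without RelB-KO replicate 2. DKO minus WT was 0.88 ± 0.42 (95% interval -0.13 to 1.88, adjusted p = 0.861). The RelB-deleted against RelB-intact difference was 1.15 ± 0.30 (adjusted p = 0.292, with the block 0.0503). It was 0.77 without RelB-KO replicate 1 and 1.52 without RelB-KO replicate 2, both with the block and both called (adjusted p = 0.0350 and 0.00147), as it was without WT replicate 2 (1.42, adjusted p = 0.0172). The authors' deposited table gives smaller log2 fold changes for Fgl2 against WT, 0.28 in RelB-KO, -0.13 in Nfkb2-KO and 0.24 in DKO, none with an adjusted p under 0.05.

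Myeloid and dendritic cells also express Fgl2 and Ebi3, and markers of other cell types were therefore set beside them. In these bulk samples, fewer cells of a type and less RNA per cell cannot be told apart. Of 11 myeloid and dendritic cell markers 10 were in the table and 7 passed the filter. For the list, the log2 of the summed un-logged values lay at 6.69 to 6.86 in WT and 6.71 to 7.26 in RelB-KO. It lay at 6.62 to 6.79 in Nfkb2-KO and 6.70 to 7.07 in DKO. The highest markers dominate this measure. Lyz2 was 5.79 in RelB-KO replicate 1, the library with the highest Fgl2, and 4.72 in RelB-KO replicate 2. Its replicate 1 value was the higher in WT (5.21 and 4.73) and Nfkb2-KO (5.08 and 4.72) too. In DKO Lyz2 was 5.61 and 4.74 while Fgl2 was 10.93 and 11.07. Of the same dendritic cell subset, Clec9a was listed at 0 in all libraries, and Xcr1 lay at 5.14 and 5.13 in WT, 5.52 and 5.19 in RelB-KO, 5.00 and 4.94 in Nfkb2-KO, and 5.24 and 5.15 in DKO. All 4 RelB-deleted libraries were thus above all 4 RelB-intact in Xcr1, as in Ebi3. For 6 of the 7 tested markers of the list (Lyz2, Csf1r, Itgam, Cd14, Xcr1 and Fcgr1) the RelB-KO and DKO means were both above the WT and Nfkb2-KO means. Library by library, Xcr1 alone held this order. DKO minus WT of these 6 markers ran from 0.0887 (Cd14) to 0.4014 (Lyz2) within replicate 1 and from -0.0182 (Csf1r) to 0.0655 (Itgam) within replicate 2. The same order of means was found in 1 of 6 B cell, 2 of 4 CD8 T and NK cell and 2 of 7 Treg and T cell markers. The part of myeloid or dendritic cell RNA in the Fgl2 and Ebi3 values was not tested. By the log2 of the summed un-logged values, B cell markers lay at 7.88 to 8.21 over all libraries, with Pax5 listed at 0. CD8 T and NK cell markers lay at 8.95 to 9.63.

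**Figure D1:**
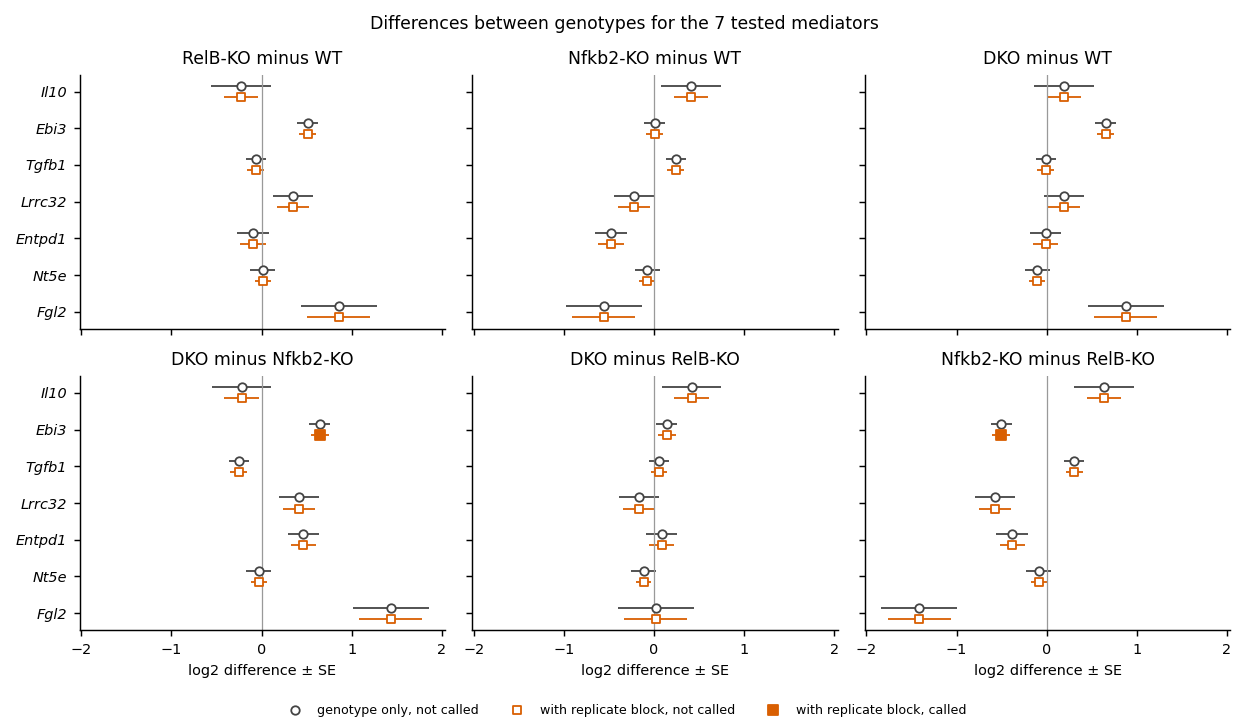
Log2 differences of the 7 tested mediators in the 6 pairwise comparisons (x axis, log2 units; bars, 1 standard error). Circles are the fit on genotype alone and squares the fit with the replicate block, filled where called; only Ebi3 is filled, in DKO minus Nfkb2-KO (0.65) and Nfkb2-KO minus RelB-KO (-0.51).

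As a group, the 7 tested mediators did not move one way. Their median difference was 0.013 in RelB-KO minus WT, -0.075 in Nfkb2-KO minus WT and 0.19 in DKO minus WT, where the median of all tested genes lay at 0.0017, 0.00057 and 0.00091. In DKO minus Nfkb2-KO it was 0.41 (all genes 0.00046) with 4 of 7 mediators positive, and in Nfkb2-KO minus RelB-KO -0.38 (all genes -0.0015) with 2 of 7 positive. Fgl2, Ebi3, Entpd1 and Lrrc32 had the positive values in the first, and Il10 and Tgfb1 the positive values in the second. In DKO minus RelB-KO the mediators' median was 0.055, and no mediator had an unadjusted p under 0.05.

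**Figure D2:**
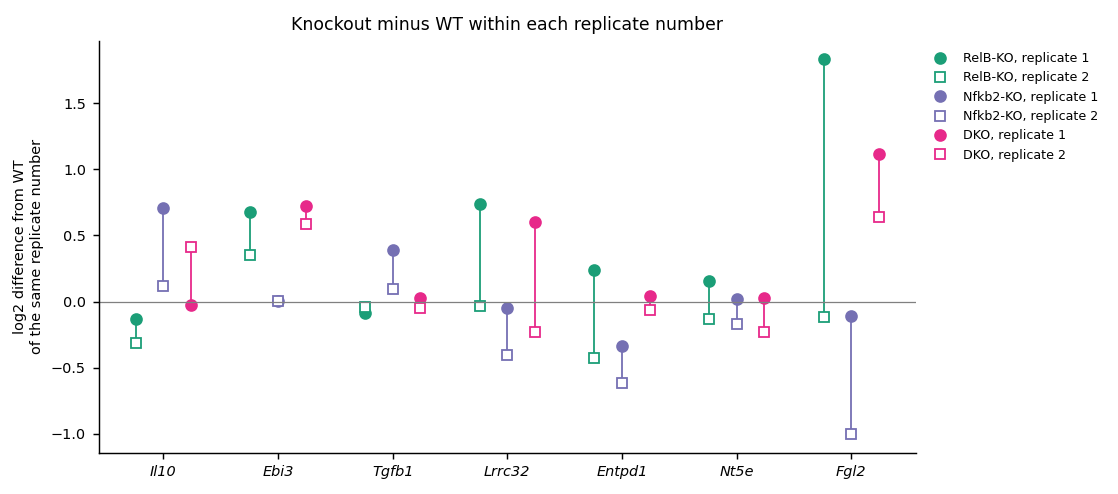
Difference of each knockout library from the WT library with the same replicate number, for the 7 tested mediators (y axis, log2 units). Filled circles are replicate 1 and open squares replicate 2, and the line joins the pair; Ebi3 is above 0 in both pairs of RelB-KO and DKO, while for Fgl2 the RelB-KO pair runs from 1.83 to -0.11.

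Genes that act with each mediator were counted from lists, to be read against 0.768% of all genes called in DKO minus Nfkb2-KO without the block and 5.02% with it. In DKO minus Nfkb2-KO, none of the 7 genes of the IL-10 receptor and its signal was called by either fit, and their median was -0.12. The largest differences were in Bcl3, a nuclear IkB family protein (-0.32 ± 0.12 with the block, adjusted p = 0.229), and Stat3 (-0.22 ± 0.097, adjusted p = 0.302). Among 14 transcription factors of Il10 expression in T cells, whose median was 0.094, limma without the block called 1 higher and none lower, and with the block 3 higher and 2 lower. Ikzf3, encoding Aiolos, rose by both fits (1.49 ± 0.13, adjusted p = 0.0125). With the block, Maf (0.82 ± 0.16) and Prdm1 (0.65 ± 0.11) rose too, and Bhlhe40, a repressor of Il10 (-1.77 ± 0.11, adjusted p = 9.98e-05), and Junb (-0.39 ± 0.087) fell. Il10 itself differed by -0.22 ± 0.33 in that comparison. In Nfkb2-KO minus WT, where the Il10 difference was 0.41, none of these factors was called without the block, and with it 4 rose (Bhlhe40, Irf4, Jun and Junb) and 1 fell (Ikzf3), against 2.91% of all genes. In Nfkb2-deleted minus Nfkb2-intact, a contrast added after the values were seen, 13 of the 14 factors were positive, with a median of 0.23. Of all genes, 50.2% were positive. With the block 2 factors were called higher and without it none, where 1.55% and 0.0435% of all genes were called. Against WT, 9 of the 14 were positive in Nfkb2-KO and 12 in DKO. The contrast averages these genotypes, which did not always lie on the same side of WT. Bhlhe40 averaged 12.26 in WT, 13.43 in Nfkb2-KO and 11.66 in DKO, and Maf 12.16, 11.95 and 12.77. The count of positive factors is thus not a count of factors that rose in both genotypes.

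Beside Ebi3, 1 of 9 genes of the IL-12 family chains and the IL-35 receptor was called in DKO minus Nfkb2-KO, by both fits (list median 0.028). This was Il6st, encoding gp130, a signalling chain for IL-35 and IL-27. It measured 12.09 and 12.00 in WT, 12.13 and 12.18 in RelB-KO, 11.55 and 11.54 in Nfkb2-KO, and 12.23 and 12.13 in DKO. It rose by 0.63 ± 0.077 in DKO over Nfkb2-KO (adjusted p = 0.0274) and was lower in Nfkb2-KO than in RelB-KO by -0.61 ± 0.077 (adjusted p = 0.0269). Unlike in Ebi3, the low libraries were those of Nfkb2-KO alone. Il27ra, a receptor chain of IL-27, was called with the block in Nfkb2-KO minus RelB-KO (0.31 ± 0.069, adjusted p = 0.0417).

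For Tgfb1 and Lrrc32, the list of TGF-beta ligands, latency and activation held 12 genes beside them, of which 10 were tested. None was called without the block in DKO minus Nfkb2-KO (median of the 10, -0.012), and with it 1 rose and 2 fell. Itgb8 and Itgav encode the integrin chains that release TGF-beta from GARP. Itgb8 was 12.51 and 12.11 in Nfkb2-KO against 11.55 to 12.00 in all other libraries, and with the block Nfkb2-KO exceeded WT by 0.61 ± 0.086 (adjusted p = 0.00905) and DKO lay below Nfkb2-KO (-0.41 ± 0.086, adjusted p = 0.0309). Itgav fell in DKO from Nfkb2-KO by -0.39 ± 0.080 (adjusted p = 0.0291), and Ltbp4, a latent TGF-beta binding protein, rose by 0.43 ± 0.081 (adjusted p = 0.0202). Itgav averaged 12.92 in WT, 12.83 in RelB-KO, 13.24 in Nfkb2-KO and 12.85 in DKO, and Ltbp4 5.87, 5.80, 5.52 and 5.95. In Nfkb2-KO, Tgfb1 and Itgb8 were at their highest and Lrrc32 at its lowest mean. No gene of the 11 for TGF-beta receptors and signal was called in that comparison by either fit (list median -0.12), and the largest differences were in the inhibitor Skil (-0.30 ± 0.12, adjusted p = 0.256) and Tgfbr3 (-0.26 ± 0.16, adjusted p = 0.475), with the block.

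For Entpd1 and Nt5e, 11 of 12 other genes of extracellular purine metabolism were tested. In DKO minus Nfkb2-KO their median was 0.20, none was called without the block, and with it 3 rose and none fell. These were Alpl, a phosphatase (0.61 ± 0.093, adjusted p = 0.00715), Ada, adenosine deaminase (0.42 ± 0.100, adjusted p = 0.0467), and Entpd5, a relative of CD39 (0.35 ± 0.079, adjusted p = 0.0394). Another list held adenosine receptors, receptors with P2 symbols and phosphodiesterases, with 8 genes tested. Of these, Pde3b, which breaks down cyclic AMP, was called higher by both fits (1.18 ± 0.14, adjusted p = 0.0224). P2rx7, the ATP-gated channel, rose with the block (0.46 ± 0.11, adjusted p = 0.0425), and the median of that list was -0.047. Entpd5 averaged 9.28 in WT, 9.28 in RelB-KO, 8.88 in Nfkb2-KO and 9.23 in DKO, and P2rx7 10.85, 10.89, 10.27 and 10.73. For these genes Nfkb2-KO stood apart as the lowest. Alpl, Ada and Pde3b had their highest mean in DKO.

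For Fgl2, 3 of 4 relatives and receptors were tested and none was called in DKO minus Nfkb2-KO by either fit. Lag3, the receptor of the related FGL1, was higher in Nfkb2-KO than in RelB-KO with the block (0.99 ± 0.21, adjusted p = 0.0380). Of 18 other suppressive molecules, Havcr2, encoding TIM-3, was lower in DKO than in Nfkb2-KO by both fits (-0.71 ± 0.096, adjusted p = 0.0364). With the block, Gzmb, granzyme B, rose by 1.87 ± 0.15 (adjusted p = 0.000400) and the costimulator Icos by 0.78 ± 0.12 (adjusted p = 0.00791), and Areg, amphiregulin, fell by 0.63 on the log2 scale (adjusted p = 0.0181). The median of that list was -0.042. Gzmb averaged 10.35 in WT, 10.23 in RelB-KO, 8.86 in Nfkb2-KO and 10.73 in DKO, and Icos 14.02, 14.12, 13.57 and 14.36. Nfkb2-KO thus had the lowest mean of both, and it had the highest mean of Havcr2 and Areg. In Nfkb2-KO minus WT, the block called 1 of the 18 higher and 1 lower, against 2.91% of all genes.

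**Figure D3:**
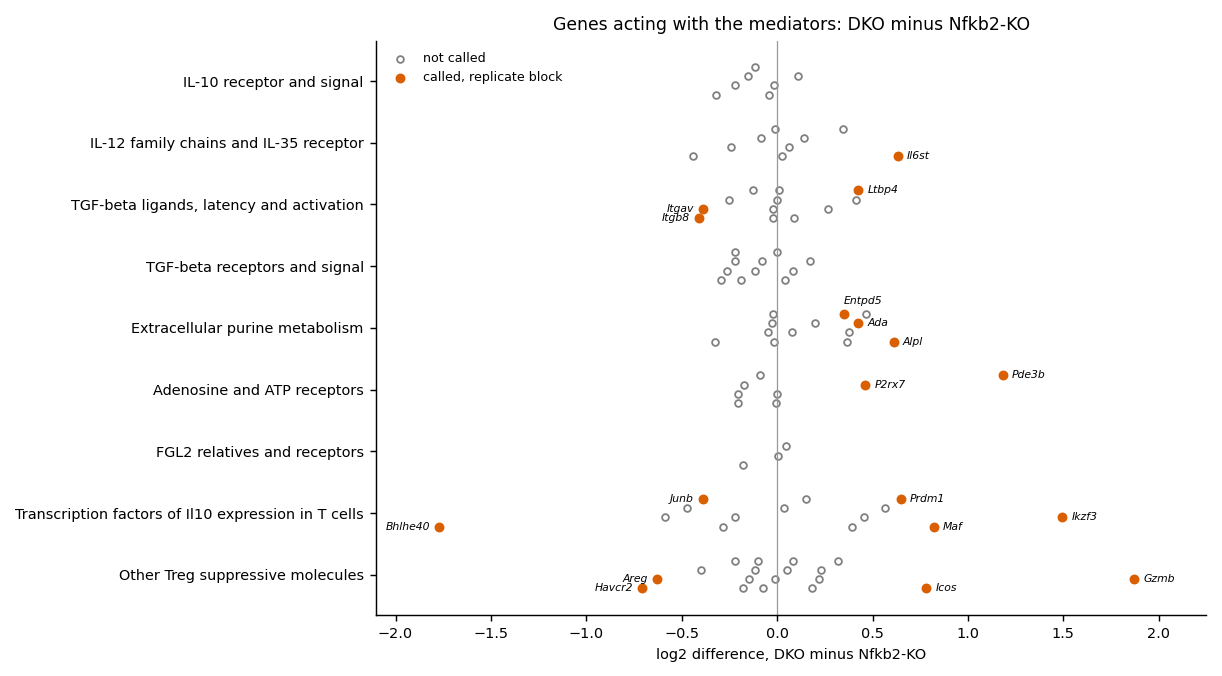
Log2 difference, DKO minus Nfkb2-KO, of the tested genes in 9 lists of genes that act with the mediators, Tgfb1, Lrrc32, Entpd1 and Nt5e included (x axis, log2 units; rows are lists, points are genes, vertical offsets only separate them). Filled points were called with the replicate block and are named; Gzmb (1.87) and Ikzf3 (1.49) are farthest right and Bhlhe40 (-1.77) farthest left.

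The genes whose levels ran most like those of a mediator were found among 779 tested genes whose genotype means spanned at least 0.5 log2 units. The measure was Pearson's r over the 8 libraries after the mean of each replicate number was subtracted, given as a description of libraries that share genotypes. For Ebi3 these were Gsto1 (0.969), Zfp53 (0.968) and Klrg1 (0.965), and for Fgl2 Chdh (0.971), Klrg1 (0.962) and Zfp53 (0.961). Klrg1, a receptor of differentiated Treg and effector cells, averaged 8.50 in WT, 9.31 in RelB-KO, 8.35 in Nfkb2-KO and 9.57 in DKO. Its RelB-deleted means were thus above its RelB-intact means, as were those of Gsto1, Zfp53 and Chdh. This order follows from choosing genes by likeness to Ebi3 and Fgl2 in the same libraries, and is no separate support. For Lrrc32 they were Crbn (0.942), Plcl1 (0.935) and Cd200r1 (0.931), and for Il10 Dmwd (0.963), Ints4 (0.951) and Chst2 (0.928).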

How the data were processed

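RNA from 8 sorted and stimulated mouse Treg samples was sequenced. The authors deposited log2 expression values per gene and library (headed as log2 RPKM, batch corrected, per the file headers), with log2 fold changes and p-values, adjusted too, of each knockout against WT. The submitters' processing notes name STAR, DESeq2 1.10.1 and mm10 without roles; counting and batch method are not given in the sources used here. Un-logged values summed to 18.16 to 19.71 M per library, and to 110.05 to 113.99 M times exonic kilobases, so they do not behave as RPKM, and weakly expressed genes hardly varied between libraries; how far this affects their differences was not tested. The 8 columns of per-sample z-scores were not used.

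Of 22432 genes, 6247 listed at 0 in all libraries and 1 with a blank cell were left out, and tests covered the 13797 whose un-logged values averaged 1 or more. limma 3.58.1 (R 4.3.3) was fitted with genotype as the only term, with a variance trend and 2-sided tests adjusted by Benjamini-Hochberg. Replicate-number deviations correlated across genes at r = 0.812 to 0.887 in all 6 pairs of genotypes, so the numbers pair the libraries; this comes from the data, since the labels do not say what a number marks. The fit was tested on simulated data for DKO minus WT over 13797 genes, with normally distributed noise and changes planted only in well-expressed genes. It recovered 14% of changes of 0.5 and 64% of 1 log2 unit with 2 false calls, and with the block 40% and 90% with 5.

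The members and lists were chosen with earlier results of these data known. Named genes were all members; in the lists, genes called by either fit, or the 2 largest differences where none was, given mainly for DKO minus Nfkb2-KO; and the 3 most alike genes. Coordinates are from GENCODE M21. Alternatives were the block, leaving out each library, no filter, quantile normalization, a pseudocount of 1, no variance trend, only the groups compared, and the authors' p-values.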

Additional observations from a re-analysis of the deposited data

How the results depend on the processing

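No mediator was called without the block under any leave-one-out fit, no filter, quantile normalization, the pseudocount, no variance trend or the 2 groups alone, and no result turned direction while called. The count of mediators called was 0 in each comparison. It became 1 by the authors' deposited adjusted p in RelB-KO, Nfkb2-KO and DKO minus WT. With the replicate block, also with quantile normalization, it became 1 in DKO minus Nfkb2-KO, Nfkb2-KO minus RelB-KO and RelB-deleted minus RelB-intact (Ebi3, adjusted p = 0.00672, 0.0227 and 0.00428). The block changed no other call on a mediator. With the block and 1 library left out, the count ran from 0 to 1 in Nfkb2-KO minus WT, DKO minus WT and Nfkb2-deleted minus Nfkb2-intact, from 0 to 3 in DKO minus Nfkb2-KO and Nfkb2-KO minus RelB-KO, and from 1 to 3 in RelB-deleted minus RelB-intact; without WT replicate 1 it was 2, 3 and 1 in the last 3. Il10 was called in Nfkb2-KO minus RelB-KO without Nfkb2-KO replicate 2 (0.97, adjusted p = 0.0211), and in Nfkb2-deleted minus Nfkb2-intact without that library (0.58, 0.0450) or DKO replicate 1 (0.59, 0.0497). A genotype left with 1 library was assumed to vary like the others. The block with quantile normalization, the block without libraries other than WT replicate 1 and the contrasts of 4 libraries against 4 were chosen after seeing the data. Over all genes the calls rose with the block from 47 to 402 in Nfkb2-KO minus WT, from 106 to 693 in DKO minus Nfkb2-KO and from 110 to 615 in Nfkb2-KO minus RelB-KO. With 2 libraries per genotype and unknown depth, changes of about 0.5 log2 units or less were mostly not detectable, and larger ones could be missed too. In the simulation, 64% of changes of 1 log2 unit were recovered without the block and 90% with it. The simulation planted 50 changes of each size, where the data gave 2 calls in that comparison, or 9 with the block. These limits come from well-expressed genes in DKO minus WT. Weakly expressed genes and the other comparisons were not covered.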
